A study of Mus musculus with 8 samples.

Results

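The 10 genes described here are the FGF receptors Fgfr1 and Fgfr2 and 8 genes that are transcribed downstream of the RAS-ERK cascade: the phosphatases Dusp4, Dusp5 and Dusp6, the Sprouty genes Spry1, Spry2 and Spry4, and the ETS factors Etv4 and Etv5. They were chosen by name, and all 10 were found among the 21950 genes counted. RNA was sequenced from 4 pools of d6PGCLCs (primordial germ cell-like cells) and from 4 pools of E12.5 PGCs (primordial germ cells of the mouse fetus), so that the culture-derived cells could be set against germ cells of the fetal gonad. The d6PGCLCs were taken at day 8 of culture from BVSC-iPSC, a single female iPSC line made from adult tail tip fibroblasts, which carries Blimp1-Venus and Stella-ECFP reporters, and cells positive for both reporters were sorted. That line was kept in 2i plus LIF, passed through EpiLCs in medium with bFGF, and was then exposed to BMP4, SCF, LIF and EGF. The PGCs came from female gonads of inbred C57BL/6J fetuses at E12.5, the embryonic day of collection, and were sorted by SSEA1 and integrin β3. Genotype, culture and sorting strategy therefore differ between the groups together with the cell type, and their parts cannot be told apart.

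FGF ligands bind FGF receptors at the cell surface together with heparan sulfate, and the activated receptors pass the signal through adaptors, RAS, RAF and MEK to ERK. ERK activity induces its own inhibitors, among them nuclear and cytoplasmic dual-specificity phosphatases and the Sprouty proteins, as well as ETS factors of the PEA3 group, and the transcripts of these genes are widely read as a footprint of the pathway. FGF signalling is used by embryonic cells to leave naive pluripotency, and one of the 2i inhibitors blocks MEK; germ cells also receive signals through the KIT and ErbB receptors, which act through the same cascade.

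Values are CPM, read counts scaled to the library total after TMM normalization, or RPKM, the same divided by the length of the counted exons in kilobases, where different genes are compared. Each library held between 7991437 and 12024841 counted reads, and each member had between 312 and 8802 reads in a library, well above the 3 reads (0.249 to 0.383 CPM) taken as the limit of detection. Defining germ cell genes summed to between 3733 and 4321 CPM in the d6PGCLC libraries and between 4402 and 4921 CPM in the PGC libraries, but the genes in these sums moved in opposite directions. The later germ cell genes Dazl (37.7 ± 23.2 against 1262 ± 241 CPM, log2 fold change -5.07) and Ddx4 (35.5 ± 6.6 against 760.4 ± 92.2 CPM, -4.42) were far lower in d6PGCLCs, and Pou5f1 (0.74), Dppa3 (0.85), Prdm1 (1.21) and Tfap2c (0.65) were higher. Prdm1 and Dppa3 are the genes of the Blimp1-Venus and Stella-ECFP reporters on which the d6PGCLCs were sorted. Fut4 (-3.48) and Itgb3 (-0.72), listed for the SSEA1 and integrin β3 sort of the PGCs, were lower in d6PGCLCs. The groups thus differ in germ cell and sort genes as well as in the members. Gonadal somatic markers (10 genes measured) summed to between 0.747 and 24.1 CPM in d6PGCLCs and to between 2.44 and 9.15 CPM in PGCs. This sum too mixed directions: Col1a1 was called higher in d6PGCLCs, with 38 and 97 of its reads in replicates 2 and 4, and Wt1, Gata4 and Pdgfra, each at or near the limit of detection in d6PGCLCs and with at most 16 reads in a PGC library, were called lower. Naive pluripotency genes (6 measured) summed to between 1167 and 1380 CPM in d6PGCLCs and to between 598 and 628 CPM in PGCs. Endothelial markers (5 genes) summed to between 96.6 and 115 CPM in d6PGCLCs and to between 66.5 and 84.1 CPM in PGCs. Most of this sum was Eng (79.5 ± 7.2 against 58.3 ± 4.1 CPM). Cdh5 was higher too (10.97 against 4.18 CPM), Tek was not called, and Kdr and Emcn had at most 6 reads in a library. Of 5 primed epiblast genes, Pou3f1 (-1.48), Sox3 (-2.69) and Fgf5 (-1.49) were lower in d6PGCLCs, Dnmt3b (0.94) was higher and Otx2 (0.55) was not called. The part of these genes and of the germ cell genes in the differences below was not tested. A pair of PGC libraries stood apart from the others of their group in marker sums. PGC replicate 2 had the lowest germ cell sum of its group (4402 CPM, against 4855 to 4921 CPM in the other PGC libraries). Its gonadal somatic (9.15 CPM) and endothelial (84.1 CPM) sums were the highest among the PGC libraries. PGC replicate 2 had the highest sum of immediate early and dissociation genes (1473 CPM, against 709.9 to 840.4 CPM in the other PGC libraries and 766 to 879 CPM in d6PGCLCs). Of these 14 genes 3 were higher in d6PGCLCs (Junb 1.83, Zfp36 1.75 and Nr4a1 1.60 on the log2 scale, without overlap), 7 were lower, among them Jun (-2.05), Hspa1a (-6.42) and Hspa1b (-5.16) without overlap, and 4 were not called; their part in the differences of the members was not tested. PGC replicate 4 was the only library with Y-linked reads, 4.78 CPM over 4 genes in a group labelled female. With both of these libraries left out, an alternative chosen after the data had been seen, the same 6 members were called higher and the same 3 lower as with all libraries.

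Members of each feedback family moved in opposite directions. In d6PGCLCs, Spry2, Dusp4, Etv5, Spry4, Dusp6 and Fgfr2 were higher than in PGCs, Spry1, Dusp5 and Etv4 were lower, and Fgfr1 did not pass the test. The differences were moderate: the largest was 2.16-fold for Spry2, and 0 of 10 members reached the 4-fold change (absolute log2 fold change of at least 2) at which the study called genes, against 6.62% of all genes. A call was made at an adjusted p of at most 0.05, which 16.1% of all 21950 genes reached upwards and 15.4% downwards, 31.5% in either direction. Values of 8 members did not overlap between the groups, against 30.2% of all genes. The members are abundant transcripts, however, and of the 8192 genes whose mean reached 10 CPM, 54.2% were called and 51.9% did not overlap. The median log2 fold change of the members was 0.43 against 0.00 over all genes, and their median absolute change was 0.52 against 0.36 among those 8192 genes. The separate pools came from independent experiments, with a single iPSC line behind all d6PGCLCs. In bulk RNA, fewer cells that transcribe a gene and less RNA per cell cannot be told apart.

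**Figure D1:**
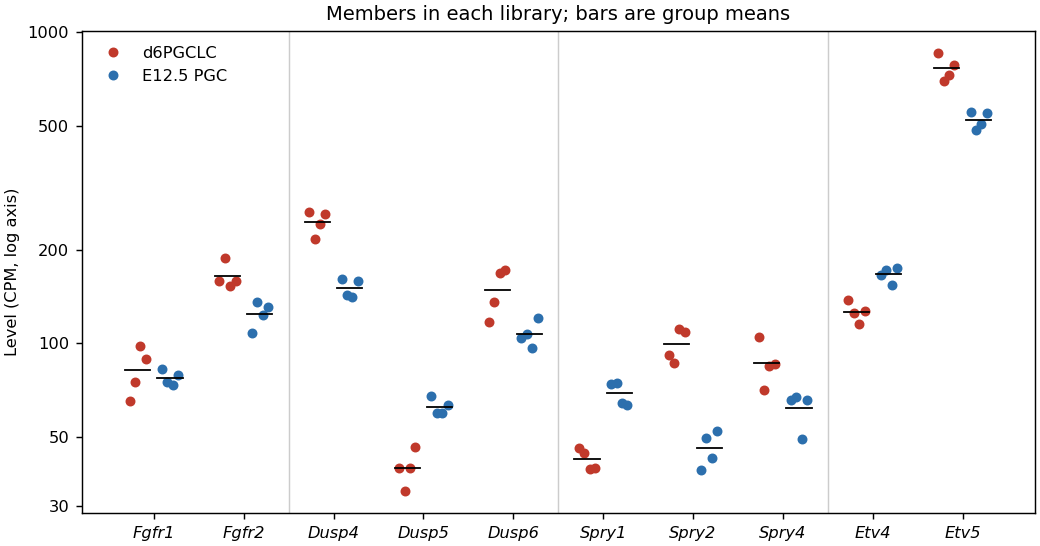
Level of each member in each library in CPM on a log axis, with d6PGCLCs in red, E12.5 PGCs in blue and a bar at each group mean. Within each of the DUSP, Sprouty and ETV families 1 gene lies lower in d6PGCLCs (Dusp5, Spry1, Etv4) while the others lie higher; Fgfr1 and Dusp6 are the genes whose groups overlap.

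Promoter sequences are shown for the pairs Dusp5 and Dusp6 and Spry1 and Spry2, which moved in opposite directions within a family, and for Etv5, the most abundant member. RefSeq promoters (GRCm38.p6) were at hand for 6 of the 10 members. Each stretch below runs up to the RefSeq transcription start and is written 5′ to 3′ on the strand of the gene; the Dusp5 stretch stops after 219 bases, at the end of an octamer that reaches into an annotated first exon. Capitals mark letters that match the CArG box (the site of the serum response factor SRF) or the octamers TGAATGGG and TGAATGAG, variants of the site of CIC, a repressor that ERK signalling inactivates. Stretches without capitals hold none of these letters.

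Etv5 (inner start, minus strand, chr16:22438369-22438618): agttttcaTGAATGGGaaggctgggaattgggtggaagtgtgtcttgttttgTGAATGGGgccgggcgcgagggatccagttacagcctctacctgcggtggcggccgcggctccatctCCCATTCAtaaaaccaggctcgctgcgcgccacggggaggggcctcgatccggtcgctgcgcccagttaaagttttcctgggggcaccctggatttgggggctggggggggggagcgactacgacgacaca
Dusp5 (plus strand, chr19:53528895-53529113): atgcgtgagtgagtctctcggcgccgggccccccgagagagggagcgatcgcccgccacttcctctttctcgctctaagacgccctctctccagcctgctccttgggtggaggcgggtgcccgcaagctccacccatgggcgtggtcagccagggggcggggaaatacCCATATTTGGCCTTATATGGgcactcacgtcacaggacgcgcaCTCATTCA
Dusp6 (plus strand, chr10:99262981-99263230): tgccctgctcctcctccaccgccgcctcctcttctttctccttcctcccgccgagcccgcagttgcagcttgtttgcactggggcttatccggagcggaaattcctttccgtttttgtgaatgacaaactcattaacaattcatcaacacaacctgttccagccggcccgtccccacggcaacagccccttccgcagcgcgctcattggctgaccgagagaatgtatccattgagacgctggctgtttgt
Spry1 (plus strand, chr3:37639697-37639946): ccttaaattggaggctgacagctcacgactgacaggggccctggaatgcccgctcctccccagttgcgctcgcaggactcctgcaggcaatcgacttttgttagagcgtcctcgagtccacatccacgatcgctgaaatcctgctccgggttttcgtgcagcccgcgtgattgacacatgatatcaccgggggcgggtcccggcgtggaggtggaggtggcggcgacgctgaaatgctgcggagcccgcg
Spry2 (minus strand, chr14:105896820-105897069): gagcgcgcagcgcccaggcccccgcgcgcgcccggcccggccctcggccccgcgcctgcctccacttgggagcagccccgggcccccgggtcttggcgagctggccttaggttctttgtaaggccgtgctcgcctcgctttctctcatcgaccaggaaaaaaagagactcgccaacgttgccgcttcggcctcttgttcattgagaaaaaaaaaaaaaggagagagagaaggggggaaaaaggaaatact

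The 250 bases before the start were searched on both strands. The octamers TGAATGAA and TGAATGGA, the form of the CIC site searched first, were in 2.07% of 32851 RefSeq promoters and in 0 of the 7 member promoters. The ETS motif CCGGAAG was in 6.91% of all promoters and likewise in 0 of 7. The variants in capitals were added after the sequences had been read: they were in 1.91% of all promoters, 3 times before the inner start of Etv5 (from -242 to -124 bases) and once before Dusp5. The outer start of Etv5, at the end of its RefSeq interval, had 0 of them in its 250 bases, which are not printed because an annotated exon overlaps them. The CArG box was likewise added to the search afterwards. It was in 1.47% of all promoters and, among the members, only before Dusp5, where 2 boxes lay side by side from -82 to -63. Matches are letters in a window and not measured sites. The Spry1 and Spry2 promoters had the same GC content (62.4%) and each held 23 CpGs, against a median of 6 over all promoters. The part of promoter composition in the differences was not tested.

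The receptors were Fgfr1, the receptor through which embryonic cells mainly read FGF4, and Fgfr2, whose splice forms bind different ligands; gene counts do not separate splice forms. Fgfr1 (chr8, 25518759 to 25575718 in GRCm38) was at 65.2, 74.9, 98.2 and 89.3 CPM in the d6PGCLC libraries and at 82.5, 75.3, 73.2 and 79.2 CPM in the PGC libraries. The d6PGCLC values spread on both sides of the PGC values. The log2 fold change of d6PGCLCs over PGCs was 0.08 (95% interval from -0.16 to 0.33, adjusted p = 0.763, edgeR quasi-likelihood test), and without d6PGCLC replicate 3 it was -0.02. Fgfr2 (chr7, 130162451 to 130266808) was at 158, 188, 153 and 159 CPM in d6PGCLCs and at 108, 136, 123 and 131 CPM in PGCs. Every d6PGCLC library was above every PGC library. The log2 fold change of Fgfr2 was 0.40 ± 0.10 (SE, n = 4 per group, adjusted p = 0.00294), which is 1.32-fold. In GENCODE, 1 of 27 Fgfr2 transcripts shares 314 exon bases on the same strand with Ctbp2, which had 1663 to 3761 reads per library and was also higher in d6PGCLCs (322 against 217 CPM, 0.57). Of those bases 0 lie within the RefSeq interval of Fgfr2, and that transcript is 2425 bases long against 4860 bases of exon counted for Fgfr2. Which isoform was counted is not given in the sources used here, and the part of this overlap was not tested.

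Per kilobase, Fgfr1 was the more abundant receptor in both groups (59.2 ± 10.6 RPKM in d6PGCLCs and 55.99 ± 2.96 RPKM in PGCs, SD), ahead of Fgfr2 (33.8 ± 3.32 and 25.6 ± 2.53 RPKM). That order rests on the isoform counted: the counted exons of Fgfr1 spanned 1385 bases, 27.5% of its longest coding transcript, so its value per kilobase is uncertain. Without the length, by share of CPM, Fgfr2 led in every library, with a mean of 59.2% of the receptor total in d6PGCLCs and 47.03% in PGCs, and Fgfr1 had 29.7% and 29.1%. An antisense gene, Gm16159, overlaps exons of Fgfr1, and since the strand used in counting is not given in the sources used here, reads of the pair cannot be told apart. Gm16159 itself had between 71 and 150 reads per library.

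The receptor that differed most in level between the groups among those detected well was not a member. Fgfr3 was at 53.6, 31.2, 17.1 and 18.8 CPM in d6PGCLCs and at 98.8, 45.1, 59.4 and 53.3 CPM in PGCs. Replicate 1 was the highest library of each group, and d6PGCLC replicate 1 lay above the lowest 2 PGC libraries. The log2 fold change of Fgfr3 was -1.10 ± 0.27 (adjusted p = 0.00266). Fgfr4 was near the limit of detection, with 12, 4, 2 and 4 reads in the d6PGCLC libraries and 3, 0, 0 and 0 in the PGC libraries. As a share of the summed RPKM of the 4 receptors, Fgfr2 made up 34.2 ± 4.07% in d6PGCLCs and 27.2 ± 3.78% in PGCs and Fgfr3 6.33 ± 3.98% and 13.6 ± 4.27%, while Fgfr1 made up 59.3 ± 7.26% and 59.2 ± 0.799%. The sum of the receptors was 99.3 ± 6.26 RPKM in d6PGCLCs and 94.6 ± 5.22 RPKM in PGCs, and these ranges overlapped.

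Among the phosphatases, Dusp4 and Dusp5 encode nuclear enzymes that dephosphorylate MAP kinases, Dusp5 acting on ERK, and Dusp6 encodes the cytoplasmic ERK phosphatase. Dusp4 (chr8, 34807610 to 34819894) was at 265, 216, 242 and 260.4 CPM in d6PGCLCs and at 161, 143, 141 and 158 CPM in PGCs. The groups were well separated, and the log2 fold change was 0.71 ± 0.09 (adjusted p = 2.85e-06), or 1.63-fold. Dusp6 (chr10, 99263231 to 99267489) was at 117, 136, 168 and 172 CPM in d6PGCLCs and at 104, 107, 96.8 and 121 CPM in PGCs. Here d6PGCLC replicate 1 fell below PGC replicate 4, and the log2 fold change was 0.47 ± 0.11 (adjusted p = 0.00281).

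Dusp5 differed the other way. It was at 39.8, 33.5, 39.8 and 46.3 CPM in d6PGCLCs and at 67.5, 59.7, 59.5 and 63.4 CPM in PGCs (chr19, 53529145 to 53541809). All d6PGCLC libraries lay below all PGC libraries, with a log2 fold change of -0.65 ± 0.12 (adjusted p = 0.000131), so that PGCs had 1.57-fold more. The counted exons of Dusp5 covered 53.2% of its longest coding transcript, so its level per kilobase is uncertain. Its exons also overlap an antisense transcript of GENCODE, and as for Fgfr1 the reads of the pair cannot be told apart, neither in the level nor in the difference.

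The ratio of Dusp4 to Dusp5, in RPKM, was 3.39, 3.27, 3.09 and 2.86 in the d6PGCLC libraries and 1.21, 1.22, 1.21 and 1.27 in the PGC libraries. The PGC libraries barely varied in this ratio (1.23 ± 0.0286, SD), and each d6PGCLC library (3.15 ± 0.231) exceeded them. Dusp5 made up 17.2 ± 0.777% of the summed RPKM of the 3 phosphatases in d6PGCLCs and 33.3 ± 1.08% in PGCs, Dusp4 54.03 ± 3.6% and 40.9 ± 0.61%, and Dusp6 28.8 ± 3.78% and 25.8 ± 1.61%. By share of CPM, without the length, Dusp5 had 9.16% in d6PGCLCs and 19.5% in PGCs.

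The Sprouty genes encode membrane-associated proteins that restrain receptor tyrosine kinase signalling upstream of ERK. Spry2 (chr14, 105891947 to 105896819) was at 91.5, 86.4, 111 and 109 CPM in d6PGCLCs and at 39.05, 49.5, 42.8 and 52.4 CPM in PGCs. The lowest d6PGCLC library was still well above the highest PGC library. The difference, 1.11 ± 0.12 on the log2 scale (adjusted p = 1.63e-07), was the largest of the members.

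Spry4 (chr18, 38586247 to 38601347) was at 105, 70.9, 84.4 and 85.5 CPM in d6PGCLCs and at 65.7, 67.3, 49.1 and 65.5 CPM in PGCs. The groups did not overlap, but PGC replicate 3 lay apart from the other PGC libraries. The log2 fold change was 0.48 ± 0.13 (adjusted p = 0.00476), and without PGC replicate 3 it was 0.38 (adjusted p = 0.0329).

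Spry1 (chr3, 37639947 to 37644599) was the Sprouty gene with more reads in PGCs. It was at 46.2, 44.5, 39.5 and 39.8 CPM in d6PGCLCs and at 73.9, 74.5, 64.5 and 63.3 CPM in PGCs. The groups did not overlap, and the log2 fold change was -0.70 ± 0.11 (adjusted p = 2.95e-05), or 1.62-fold more in PGCs. GENCODE places an antisense gene over its exons, and reads of the pair cannot be told apart here either.

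The order of Spry1 and Spry2 within a library turned around between the groups. In RPKM, the ratio of Spry2 to Spry1 was 2.35, 2.31, 3.33 and 3.25 in d6PGCLCs and 0.628, 0.788, 0.788 and 0.984 in PGCs. Thus Spry2 exceeded Spry1 in 4 of 4 d6PGCLC libraries and was below it in 4 of 4 PGC libraries, narrowly so in PGC replicate 4. Spry2 made up 56.6 ± 4.37% of the summed Sprouty RPKM in d6PGCLCs and 34.6 ± 3.71% in PGCs, Spry1 20.6 ± 2.77% and 43.9 ± 3.44%, and Spry4 22.8 ± 2.88% and 21.6 ± 1.8%.

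Etv4 and Etv5 encode PEA3-group activators that are induced by FGF signalling in many tissues, and Etv5 is also known from the spermatogonial stem cell, where GDNF induces it. Etv5 (chr16, 22381313 to 22439570) was at 856, 699, 730.3 and 785 CPM in d6PGCLCs and at 552, 483, 505 and 549 CPM in PGCs. The groups were separate, with a log2 fold change of 0.56 ± 0.09 (adjusted p = 2.77e-05). Etv5 was by far the most abundant member in both groups (177 ± 15.9 and 120.3 ± 7.74 RPKM), and by mean CPM it ranked above 99.3% of all genes.

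Etv4 (chr11, 101769747 to 101785310) was at 138, 125, 115 and 127 CPM in d6PGCLCs and at 166, 172, 154 and 174 CPM in PGCs. Every PGC library was above every d6PGCLC library, with a log2 fold change of -0.40 ± 0.09 (adjusted p = 0.0013). The third gene of the group, Etv1, was low in both (5.96 and 5.72 CPM, log2 fold change 0.06). The ratio of Etv5 to Etv4, in RPKM, was 4.07, 3.67, 4.16 and 4.06 in d6PGCLCs and 2.18, 1.84, 2.15 and 2.06 in PGCs. Etv5 therefore led in every library, but by a wider margin in the cultured cells.

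**Figure D2:**
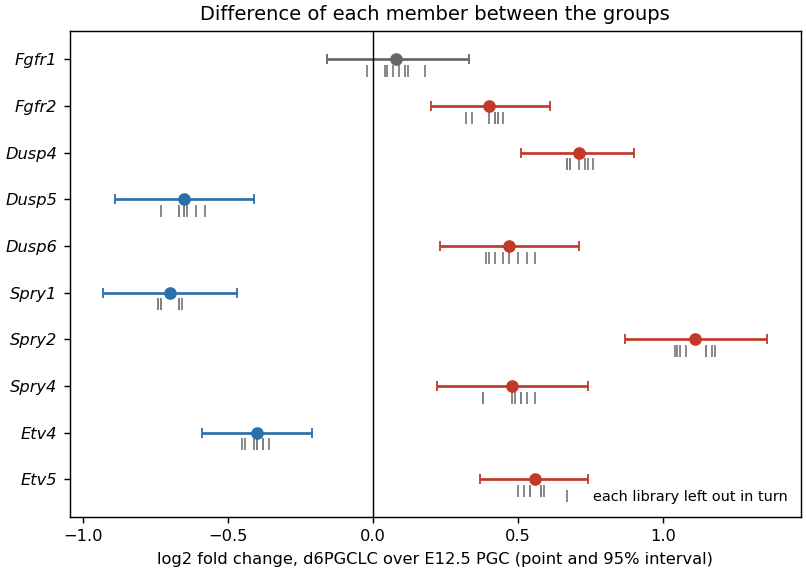
Log2 fold change of each member, d6PGCLC over E12.5 PGC, with its 95% interval from the edgeR fit (red higher, blue lower, grey not called); the ticks under each point are the values with each library left out in turn. The 9 called members stay on their side of 0 in every such fit, and Fgfr1 lies on both sides.

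**Figure D3:**
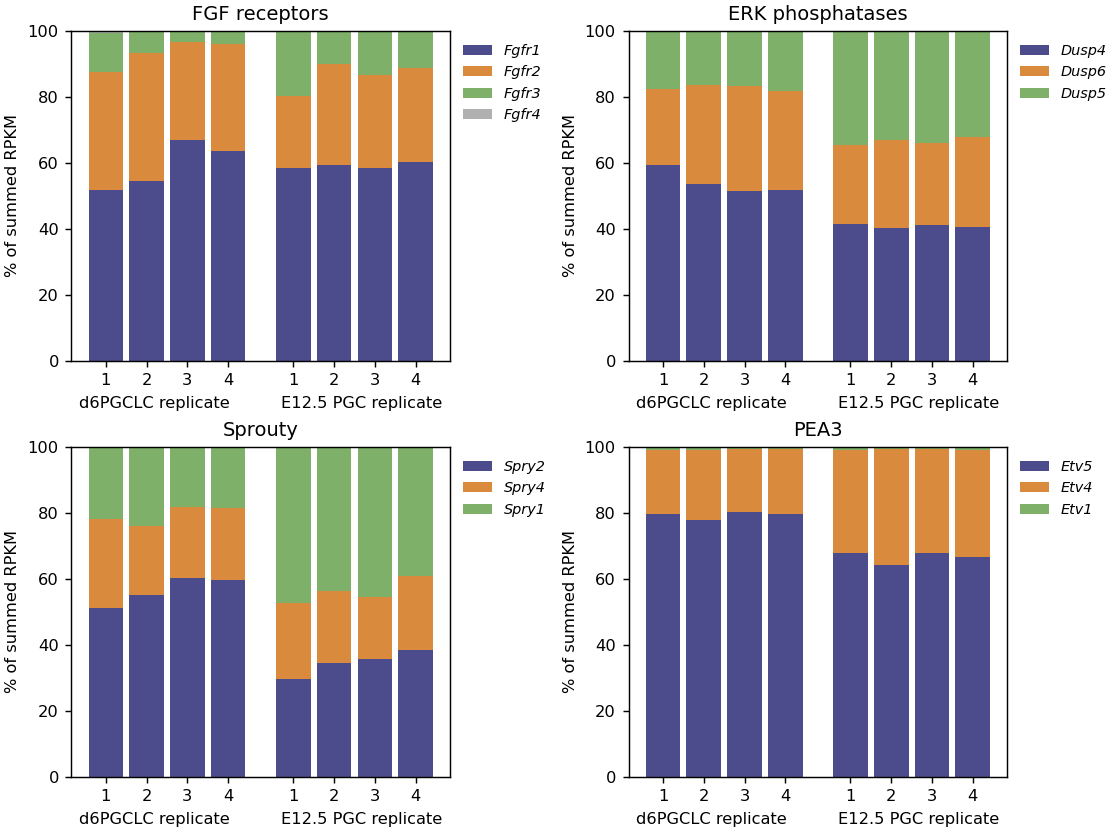
Share of each gene in the summed RPKM of its family, in percent, for each library. The phosphatase family here is Dusp4, Dusp5 and Dusp6 only. In d6PGCLCs Dusp5 and Spry1 hold smaller shares and Etv5 a larger share than in PGCs in every library, while the share of Fgfr1 is alike on average in both groups (59.3% and 59.2%).

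By level per kilobase, the members ran in d6PGCLCs from Etv5 (177 ± 15.9 RPKM) through Dusp4 (95.05 ± 8.68), Fgfr1 (59.2 ± 10.6), Dusp6 (50.8 ± 8.89), Spry2 (45.9 ± 5.65), Etv4 (44.3 ± 3.3), Fgfr2 (33.8 ± 3.32) and Dusp5 (30.3 ± 3.98) to Spry4 (18.5 ± 2.97) and Spry1 (16.5 ± 1.31). Etv5 and Dusp4 stood clear of their neighbours, whereas Fgfr1, Dusp6, Spry2 and Etv4 overlapped with their neighbours in that order, as did Fgfr2 with Dusp5 and Spry4 with Spry1. In PGCs the order was Etv5 (120.3 ± 7.74 RPKM), then Etv4 (58.6 ± 3.22), Dusp4 (58.3 ± 3.88) and Fgfr1 (55.99 ± 2.96) close together, Dusp5 (47.5 ± 2.88), Dusp6 (36.8 ± 3.4), Spry1 (26.8 ± 2.33) and Fgfr2 (25.6 ± 2.53) close together, Spry2 (21.2 ± 2.82) and Spry4 (13.3 ± 1.85). Spry2 was thus the fifth member by level per kilobase in the cultured cells and the ninth in the fetal ones. By CPM, without the length, the order differed. Fgfr1 (81.9 CPM) then lay below Fgfr2 (164 CPM) in d6PGCLCs, and Spry2 (45.9 CPM) was the lowest member in PGCs. The summed Sprouty genes came to 80.9 ± 5.74 RPKM in d6PGCLCs and 61.3 ± 4.57 RPKM in PGCs. The phosphatases Dusp4, Dusp5 and Dusp6 came to 176 ± 16.4 and 143 ± 8.68 RPKM, and the PEA3 genes to 223 ± 18.8 and 180.2 ± 9.33 RPKM. Each of these sums was higher in every d6PGCLC library than in any PGC library. The phosphatase sum leaves out Dusp9, also a cytoplasmic ERK phosphatase, at 33.8 ± 16.2 RPKM in d6PGCLCs and 159 ± 23.3 RPKM in PGCs. Counting Dusp9 would turn the direction of that sum.

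The rest of the pathway was read from 7 gene lists with 110 measured genes, of which 17 were higher in d6PGCLCs, 39 lower and 54 not called (50.9% called, median log2 fold change -0.17). That is 15.5% higher and 35.5% lower, against 16.1% and 15.4% over all genes. Of the 58 list genes whose mean reached 10 CPM, 11 were higher (19.0%) and 23 lower (39.7%), against 28.4% and 25.7% of all genes at that level. The counts of single lists below stand against the same shares and were not tested as sets. Of 17 secreted FGF ligands, 9 had at most 3 reads in every library, and none had a mean of 10 CPM or more. Fgf4, the ligand made by pluripotent cells, was higher in d6PGCLCs (1.86 ± 1.42 against 0.311 ± 0.228 CPM, log2 fold change 2.52 ± 0.64, adjusted p = 0.00158), with 3.96 CPM in d6PGCLC replicate 1 and at most 1.49 CPM in the others. Fgf17 (0.496 ± 0.463 against 2.98 ± 0.811 CPM, -2.68 ± 0.51) and Fgf5, an epiblast ligand (1.31 ± 0.824 against 3.76 ± 1.96 CPM, -1.49 ± 0.44), were lower, as were 3 ligands near the limit of detection.

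Co-receptors and receptor modulators went both ways: of 22 genes, 6 were higher, 8 lower and 8 not called (median -0.05). Among the heparan sulfate proteoglycans that help FGFs bind, Sdc4 was at 469.8, 470.2, 294 and 300.02 CPM in d6PGCLCs and between 159 and 171 CPM in PGCs, with a log2 fold change of 1.22 ± 0.13 (adjusted p = 2.03e-07). The d6PGCLC libraries fell into a higher and a lower pair, both above the PGCs. Gpc3 (75.8 ± 9.3 against 31.8 ± 2.51 CPM) and Gpc1 (102 ± 21.4 against 66.3 ± 2.53 CPM) were higher too, whereas Sdc1 (169 ± 15.3 against 189 ± 1.63 CPM, -0.16, adjusted p = 0.203), Sdc2 (0.19) and Gpc4 (0.70) did not pass the test. Of the genes for heparan sulfate synthesis in the list, Ext1 was lower (20.9 ± 1.97 against 28.95 ± 0.504 CPM, -0.47 ± 0.13, adjusted p = 0.00806), Hs6st1 was higher (95.3 ± 14.8 against 76.4 ± 5.41 CPM, 0.32 ± 0.11, adjusted p = 0.034), and Ext2 (0.02), Hs2st1 (-0.13) and Ndst1 (0.08) did not pass the test. The lower genes also included Flrt2 (0.262 ± 0.242 against 2.003 ± 0.477 CPM) and Flrt3 (16.7 ± 8.82 against 42.2 ± 3.82 CPM), transmembrane partners of FGF receptors, and Shisa2, which holds immature FGF receptors back in the cell (1.3 ± 0.633 against 9.31 ± 3.73 CPM).

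Of 21 adaptors and RAS-ERK core genes, 4 were higher, 7 lower and 10 not called (median 0.15). The higher genes included those of MEK1, ERK1 and the ERK-activated kinase RSK1. Map2k1, which encodes MEK1, was at 421, 416, 374 and 378 CPM in d6PGCLCs and at 179.5, 188, 188 and 199 CPM in PGCs. That is a log2 fold change of 1.07 ± 0.08 (adjusted p = 1.99e-09), with no overlap. Mapk3 (ERK1) had 404 ± 25.6 against 254 ± 16.3 CPM (0.67 ± 0.09, adjusted p = 2.14e-06), and Rps6ka1 (RSK1) had 272 ± 20.4 against 183 ± 9.13 CPM (0.57 ± 0.09). The lower genes included the RAS exchange factor genes Sos1 (53.1 ± 10.9 against 94.2 ± 20.7 CPM, -0.83 ± 0.15) and Sos2 (5.18 ± 1.15 against 11.1 ± 3.67 CPM, -1.09 ± 0.23), the kinase gene Braf (15.6 ± 4.73 against 26.98 ± 3.82 CPM, -0.80 ± 0.18), the scaffold gene Ksr2 (1.93 ± 1.04 against 5.36 ± 0.936 CPM, -1.47 ± 0.33) and Rps6ka3 for RSK2, a relative of RSK1 (125 ± 12.6 against 175 ± 16.9 CPM, -0.48 ± 0.10).

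The other MAP kinase phosphatases did not divide as Dusp4, Dusp5 and Dusp6 did: of 7, 5 were lower in d6PGCLCs, 2 were not called and none was higher (median -1.16), a direction already known for this class from an earlier look at these libraries. Dusp9, a cytoplasmic ERK phosphatase like Dusp6, was at 156, 109.9, 68.5 and 52.2 CPM in d6PGCLCs and at 509, 374, 510.3 and 426 CPM in PGCs. The d6PGCLC libraries spread widely among themselves and all lay below the PGCs, and the log2 fold change was -2.24 ± 0.21 (adjusted p = 3.77e-08). Dusp8 (3.36 ± 1.03 against 37.2 ± 22.4 CPM, -3.49 ± 0.36) and Dusp10 (0.915 ± 0.558 against 6.72 ± 1.29 CPM, -2.91 ± 0.36), whose products act mainly on the stress kinases JNK and p38, were also lower. Dusp2 was low in both groups (1.69 ± 0.81 against 3.9 ± 1.52 CPM, -1.16 ± 0.36).

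Other restraints on RAS-ERK signalling showed 6 genes lower, 7 not called and 0 higher of 13 (median -0.24). Spred1, a Sprouty relative that brings neurofibromin to RAS, had 8.64 ± 1.58 CPM in the cultured cells and 21.5 ± 1.66 CPM in PGCs (-1.33 ± 0.17, adjusted p = 1.62e-06). Neurofibromin itself, Nf1, was at 1.31 ± 0.979 and 6.13 ± 1.88 CPM (-2.27 ± 0.39, adjusted p = 5.24e-05). The ubiquitin ligase gene Cbl (64.8 ± 14.8 against 129 ± 21.3 CPM, -0.99 ± 0.14) and Lrig1, which restrains receptor tyrosine kinases (87.6 ± 3.86 against 128 ± 15.7 CPM, -0.55 ± 0.10), were lower too.

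A list of 16 genes held other ETS factors and outputs of the pathway together with the repressor Cic and its co-repressor genes Atxn1 and Atxn1l; 3 were higher (Ets2, Elk3 and Atxn1l), 5 lower and 8 not called (median -0.08). Phlda1 (5.58 ± 1.13 against 15.01 ± 3.88 CPM, -1.42 ± 0.21), Ccnd1 for cyclin D1 (6.71 ± 7.22 against 25.5 ± 8.58 CPM, -1.92 ± 0.46) and Ets1 (32.05 ± 7.01 against 60.8 ± 5.99 CPM, -0.93 ± 0.14) were lower. The immediate early gene Egr1 was at 42.1, 43.3, 33.4 and 59.5 CPM in d6PGCLCs and at 64.1, 109.9, 61.3 and 54.8 CPM in PGCs (-0.71 ± 0.18, adjusted p = 0.00484). The groups overlapped, and its highest value was in PGC replicate 2, the library with the high immediate early sum. Fos was lower too (50.5 ± 9.55 against 82.1 ± 36.7 CPM, -0.70 ± 0.22, adjusted p = 0.0152), also with overlap. Of the 14 immediate early and dissociation genes given above, 7 were lower in d6PGCLCs and 3 (Junb, Zfp36 and Nr4a1) were higher. Ets2 (30.1 ± 7.01 against 17.5 ± 3.27 CPM, 0.78 ± 0.17) and Elk3 (3.65 ± 0.925 against 1.27 ± 0.23 CPM, 1.49 ± 0.31), which encode further ETS factors, were higher. Cic did not pass the test (301 ± 38.5 against 357 ± 37.5 CPM, -0.25, adjusted p = 0.0732), whereas the gene of its co-repressor, Atxn1l, was higher in d6PGCLCs (77.98 ± 11.6 against 38.5 ± 3.65 CPM, 1.02 ± 0.12, adjusted p = 8.31e-07).

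Among 14 other receptor tyrosine kinases, 3 were higher, 3 lower and 8 not called (median 0.15). Erbb3 was at 186, 151, 191 and 178 CPM in d6PGCLCs and at 52.02, 50.4, 48.3 and 55.4 CPM in PGCs (log2 fold change 1.78 ± 0.10, adjusted p = 1.5e-11). Its change was larger than that of any member, and the groups were far apart. The difference of Kit, the SCF receptor of germ cells, was small (484 against 424 CPM, 0.19 ± 0.09, adjusted p = 0.113). Met, the HGF receptor, was lower (6.71 ± 3.57 against 32.4 ± 6.84 CPM, -2.30 ± 0.26), and Flt1 (4.17 ± 2.52 against 0.339 ± 0.147 CPM) and Pdgfrb (4.71 ± 1.47 against 1.18 ± 0.341 CPM) were higher. Ret, the GDNF receptor, was low in both (0.694 ± 0.254 against 1.79 ± 0.799 CPM, -1.39 ± 0.45).

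For each member, the genes with the most similar values over the 8 libraries were sought in the 8191 others whose mean reached 10 CPM, by the root mean square difference of log2(CPM + 0.1) after centring. Etv5 was nearest to Cyfip1 (0.037) and Actn1 (0.044), Etv4 to Mef2a (0.038) and Ube2c (0.058), Spry2 to Cotl1 (0.048) and Eogt (0.059), and Dusp4 to Trim25 (0.054) and Sgo2a (0.057). Spry4 had the least close neighbour (Sh2d3c, 0.097). None of the members was among the 2 nearest genes of another.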

How the data were processed

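For each of the 8 libraries the authors deposited gene counts, unnormalized and limited to reads with a unique position (stranded mRNA libraries, single-end reads, STAR, GRCm38 with ERCC sequences, mapqMin 255 in QuasR). Per the labels and the methods, reads were counted over the exons of 1 isoform per gene picked at random, whose length in base pairs is in the deposited table as another value that is no measurement. Count columns without a sample numbered 0.

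Counts of all 21950 genes were scaled with TMM and fitted with edgeR 4.0.16 in R 4.3.3 (glmQLFit and glmQLFTest, prior count 0.125, no filter on low counts), with cell type as the only term. P-values were adjusted over all genes (Benjamini-Hochberg), and a call needs an adjusted p of at most 0.05. Standard errors and 95% intervals come from that fit. RPKM were computed from CPM and the deposited length; shares and ratios of genes are descriptions without a test. The script was tested on simulated data. Libraries held 7991437 to 12024841 counts, and limits of detection cover counting error only. P-values measure the spread between pools of 1 iPSC line and 1 mouse strain. Libraries of 1 group differed by more than sampling noise (ratios of chi-square to its degrees of freedom between 3.19 and 20.75). The ratios were highest for d6PGCLC replicate 1 against the others of its group (16.15 to 20.75).

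The members, the 7 pathway lists, the marker lists and the tests were chosen with earlier results of these data known. Named are all members, Etv1, Fgfr3, Fgfr4 and Cic, the 2 nearest genes of a member, and from each list up to 4 called genes per direction with the largest change among those averaging 1 CPM or more; Kit, Rps6ka3, Ctbp2, Sdc1, Sdc2, Gpc4, Ext1, Ext2, Hs2st1, Ndst1 and the marker genes given by name were added after their values were seen. Fgf21, Anos1, Frs3, Map2k2, Errfi1 and Ier3 were not analysed here. Gene models are from GENCODE vM21 and promoters from RefSeq GRCm38.p6. Alternatives were DESeq2 1.42.0, a likelihood ratio test, other scalings, filters, prior counts and thresholds, a length offset, a replicate block, and leaving out libraries.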

Additional observations from a re-analysis of the deposited data

Results flagged for a closer look

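Spry4 in PGC replicate 3 was the lowest PGC value, 49.1 CPM, against 65.5 to 67.3 CPM in the other PGC libraries. The gap to the nearest library took up 0.901 of the range of the group, above Dixon's critical value for 4 samples. The 10 members gave 20 sets of 4 libraries, of which 1 stood out in this way, and chance gives about 1 in 20. Without this library Spry4 was still called higher in d6PGCLCs (log2 fold change 0.38, adjusted p = 0.0329).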

How the results depend on the processing

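Of the 10 members, 6 were called higher and 3 lower under every alternative but the test against a minimum change: glmTreat, set to changes beyond 1 on the log2 scale, called 0 members higher and 0 lower, and 5 genes of the pathway lists higher and 10 lower. With each library left out in turn, 6 members were higher and 3 lower, and between 14 and 18 pathway genes were higher and between 36 and 39 lower. Fgfr1, never called, lay between -0.02 (without d6PGCLC replicate 3) and 0.18 (without d6PGCLC replicate 1) in these fits. The replicate numbers did not pair the libraries throughout. Correlations of same-numbered deviations were 0.434, 0.209, -0.106 and 0.1 over 8192 genes, and those of unlike numbers ran from -0.336 to 0.246. The value for replicate 1 of both groups, 0.434, was the highest of all, so a pairing of these libraries stays possible. With a replicate block 6 members were called higher and 3 lower, with 21 and 39 pathway genes. Other scalings moved the median log2 fold change by -0.04 to -0.01. Shares by RPKM depend on the randomly chosen isoforms: by CPM the share of Fgfr2 was 59.2% in d6PGCLCs and 47.03% in PGCs, of Dusp5 9.16% and 19.5%, and of Etv4 14.02% and 24%, and Spry1 had 39.1% in PGCs, with the same direction between the groups. With a pseudocount of 1, 18 of the 20 nearest-gene pairs were the same. Reads were few for the FGF ligands, 9 of 17 having at most 3 in every library, whereas each member had at least 312.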
